A study of Caenorhabditis elegans with 6 samples.

Results

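The CYP-35 subfamily of Caenorhabditis elegans is a group of 10 cytochrome P450 genes, cyp-35A1 to cyp-35A5, cyp-35B1 to cyp-35B3, cyp-35C1 and cyp-35D1. The members were every gene whose symbol begins with cyp-35, 10 of the 20189 protein-coding genes in a table of ribosome footprints. The symbol alone decided membership, but the subfamily was picked from footprint values of these same libraries, the difference between animals grown with and without cycloheximide (CHX). That difference is therefore given for the members as a description, without p-values, and nothing is rested on it. Footprints were sequenced from whole L4 larvae in 6 libraries. The CHX group held 3 libraries from animals raised for 3 days on medium holding CHX at 500 µg/ml, a drug that stops ribosomes during elongation. The no CHX group held 3 libraries from animals raised for 2 days on medium without it.

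All animals of both groups were hermaphrodites kept at 23 °C and were rpl-36A(P55Q)/mIn1 heterozygotes. They carried 1 copy of the P55Q change in the gene of ribosomal protein eL42, a change known to let ribosomes work in the presence of the drug, over the balancer chromosome mIn1. Ribosomes of each animal are thus a mixture with and without the change, and no wild-type animals were analysed here. Time in culture went with the drug, so their effects cannot be told apart. The labels do not say whether the replicates were separate cultures, and every p-value then rests on a spread among libraries that may be technical.

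Cytochrome P450 enzymes are haem proteins, mostly of the endoplasmic reticulum, that insert oxygen into fat-soluble molecules such as drugs, plant toxins, steroids and fatty acids. They take electrons from NADPH through a reductase, which in the worm is EMB-8, and their products are often passed to UDP-glucuronosyltransferases and glutathione S-transferases and then pumped out of the cell by ABC transporters. The CYP-35 enzymes are known for strong induction in the intestine by foreign compounds, for which they serve as reporters, and genes of the A branch, cyp-35A2 among them, have also been tied to fat storage. The gene cyp-35D1 is known for breaking down the anthelmintic thiabendazole, under the nuclear receptor gene nhr-176.

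All members lie on chromosome V (WBcel235), in tandem groups and alone. A block of 4 genes on the plus strand holds cyp-35A5 (3936326 to 3938496), cyp-35B1 (3939032 to 3941235), cyp-35B2 (3942215 to 3944457) and cyp-35B3 (3945353 to 3947044), with gaps of 535, 979 and 895 bases. Farther along, cyp-35A3 (4022609 to 4024475) and cyp-35A4 (4031619 to 4033446) lie 7143 bases apart, also on the plus strand. The pair of cyp-35A1 (7359935 to 7361773) and cyp-35A2 (7362319 to 7364204) lies on the minus strand with a gap of 545 bases. Single genes are cyp-35C1 (13896663 to 13898488, minus strand) and cyp-35D1 (16069238 to 16071301, plus strand). The positions are the genomic spans given with the counts.

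Totals ran from 1601009 to 1901815 reads in the CHX libraries and from 1639682 to 1842865 in the no CHX libraries. Levels are given as CPM, counts per 1e6 reads of the TMM-scaled library total, and error is the SD over 3 libraries. Markers of a whole larva were found in every library. Of the lists checked, all of 13 intestine, 10 body wall muscle, 10 neuron, 10 hypodermis, 8 pharynx, 10 oocyte and 9 sperm markers had reads. Of 10632 genes with enough reads to test, 2364 were called higher and 2123 lower with CHX (edgeR, false discovery rate under 0.05).

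The subfamily took far fewer footprints in CHX animals. Its 10 genes together had 90.6, 47.4 and 64.3 CPM in CHX replicates 1 to 3, against 221, 376 and 413 CPM in no CHX replicates 1 to 3. The groups did not overlap, and the means were 67.4 ± 21.8 CPM in CHX and 337 ± 102 CPM in no CHX (SD, n = 3 each), a ratio of no CHX to CHX of 4.99. The lower level was that of the A and C branches. The 5 A genes summed to 40.9 ± 10.4 CPM in CHX and 204 ± 57.0 CPM in no CHX, while the 3 B genes summed to 5.46 ± 4.58 CPM in CHX and 3.86 ± 0.694 CPM in no CHX (SD, n = 3 each).

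**Figure D1:**
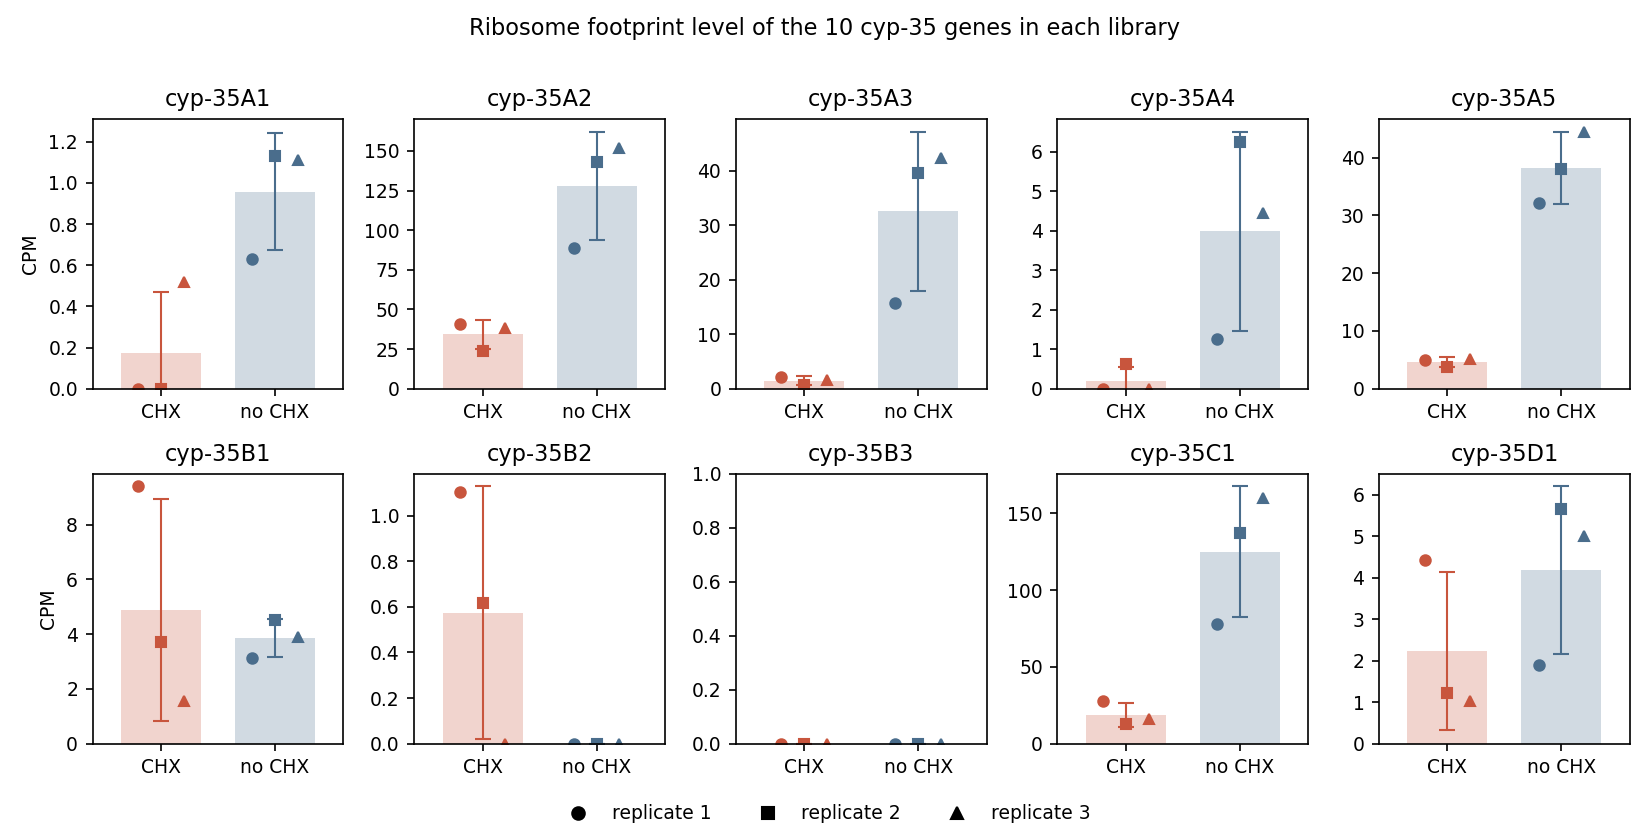
Footprint level in CPM of each cyp-35 gene, with 1 panel a gene and its own vertical scale; points are libraries, bars are group means and error bars are the SD over 3 libraries, with CHX left of no CHX. The CHX points of cyp-35A2, cyp-35A3, cyp-35A5 and cyp-35C1 all lie below the no CHX points, those of cyp-35B1 and cyp-35D1 mix with them, and cyp-35B3 has no read.

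Only 4 members, cyp-35A2, cyp-35A3, cyp-35A5 and cyp-35C1, had enough reads to enter the fit over all genes. Of these, cyp-35A3 and cyp-35A5 passed the filter on low counts through the no CHX libraries alone, so they could hardly have been other than lower with CHX. All 4 were called lower, against 20.0% of all tested genes called lower, and 3 were called and at least 4-fold lower, against 0.555% of all tested genes. In the other direction 22.2% of all tested genes were called, and 0 members, whether by edgeR, by limma-voom or by DESeq2. Each tool fitted only these 4 lower members, so the number higher at an unadjusted p under 0.05 could only be 0. Over all tested genes, 5299 had an unadjusted edgeR p under 0.05 in either direction. Since the subfamily was picked on this contrast, the counts describe it and are not evidence about it.

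The 2 members with the most footprints were cyp-35A2 and cyp-35C1. The gene cyp-35A2 (WBGene00015400), whose knockdown in worms is known to lower fat stores, had 40.9, 24.0 and 38.3 CPM in CHX replicates 1 to 3, against 88.7, 143 and 152 CPM in no CHX replicates 1 to 3. Every CHX library was below every no CHX library. The reads behind these levels numbered 74, 39 and 74 with CHX, against 141, 253 and 273 without. The means were 34.4 ± 9.09 CPM in CHX and 128 ± 34.3 CPM in no CHX (SD, n = 3 each), and the fit gave a log2 fold change, CHX over no CHX, of -1.88 (SE 0.25).

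The gene cyp-35C1 (WBGene00007362), a member often used to report exposure to foreign compounds, had 27.6, 12.9 and 16.1 CPM in CHX replicates 1 to 3, against 78.0, 137 and 160 CPM in no CHX replicates 1 to 3. Again the groups did not overlap, and the highest CHX library was well below the lowest no CHX library. The means were 18.9 ± 7.74 CPM in CHX and 125 ± 42.4 CPM in no CHX (SD, n = 3 each), and the log2 fold change was -2.72 (SE 0.39). Without CHX both genes had nearly the same number of reads, and with CHX they did not. Reads of cyp-35A2 per read of cyp-35C1 came to 1.48, 1.86 and 2.39 in CHX replicates 1 to 3 and to 1.14, 1.05 and 0.948 in no CHX replicates 1 to 3.

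Further A genes stood clearly below that level without CHX and at a few reads with it. The gene cyp-35A5 (WBGene00019473) had 4.97, 3.70 and 5.18 CPM in CHX replicates 1 to 3, against 32.1, 37.9 and 44.5 CPM in no CHX replicates 1 to 3. Its libraries were the tightest of the 4 within each group, and the groups lay far apart. The means were 4.62 ± 0.804 CPM in CHX and 38.2 ± 6.21 CPM in no CHX (SD, n = 3 each), and the log2 fold change was -3.02 (SE 0.26).

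The gene cyp-35A3 (WBGene00019565) had the lowest fold change of the members tested. Its levels were 2.21, 0.616 and 1.55 CPM in CHX replicates 1 to 3, from 4, 1 and 3 reads, against 15.7, 39.6 and 42.3 CPM in no CHX replicates 1 to 3, from 25, 70 and 76 reads. No CHX replicate 1 was far below the other no CHX libraries and still above all CHX libraries. The means were 1.46 ± 0.801 CPM in CHX and 32.5 ± 14.6 CPM in no CHX (SD, n = 3 each), and the log2 fold change was -4.40 (SE 0.53). In order of fold change from the lowest, cyp-35A3 was gene 3, cyp-35A5 gene 8, cyp-35C1 gene 14 and cyp-35A2 gene 81 of the 10632 tested.

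The other 6 members had too few reads for the fit and are given as reads. For cyp-35A4 (WBGene00016786), which lies near cyp-35A3, 0, 1 and 0 reads fell in CHX replicates 1 to 3, against 2, 11 and 8 in no CHX replicates 1 to 3. The groups did not overlap, and the ratio of CHX to no CHX was 0.0458, with an exact 95% counting interval of 0.00111 to 0.285. For cyp-35A1 (WBGene00015399), the tandem partner of cyp-35A2, there were 0, 0 and 1 reads with CHX, against 1, 2 and 2 without. Its ratio of 0.192 had an interval of 0.00406 to 1.72, so no difference was detectable at this depth. Counting intervals cover counting error alone, not the spread between libraries.

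The genes of the B and D branches gave no difference that the counts could show. The gene cyp-35B1 (WBGene00019472), known to be raised by the longevity factor DAF-16, had 17, 6 and 3 reads in CHX replicates 1 to 3, against 5, 8 and 7 in no CHX replicates 1 to 3. CHX replicate 1 was highest of the 6 libraries and CHX replicate 3 lowest, and the ratio of CHX to no CHX was 1.25 (counting interval 0.671 to 2.36). The gene cyp-35D1 (WBGene00008829), that of thiabendazole breakdown, had 8, 2 and 2 reads with CHX, against 3, 10 and 9 without. The groups overlapped, with a ratio of 0.524 (counting interval 0.236 to 1.11). For cyp-35B2 (WBGene00019471) there were 2, 1 and 0 reads with CHX, against 0, 0 and 0 without, which allows up to 0.582 CPM over the no CHX group. The gene cyp-35B3 (WBGene00019470) had no read, which allows up to 0.559 CPM in CHX and 0.582 CPM in no CHX.

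Over all members, with those too weak for the fit included, the CHX and no CHX libraries did not overlap in 6 of 10 genes, the 5 A genes and cyp-35C1, which all were lower with CHX. Among all tested genes, 24.8% had every CHX library below every no CHX library. The member cyp-35A1 enters that count on the strength of 6 reads in all, 1 in CHX and 5 in no CHX.

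The genes of the tandem block and the flanking genes are given side by side, as a position effect was not tested. By summed reads, cyp-35A5 was 8.24 times higher without CHX than with it, while cyp-35B1, which starts 535 bases after its end in the same orientation, was at 0.800 times (counting interval 0.424 to 1.49). Of 11 flanking genes outside the subfamily 4 could be tested, and none was called. They were cyp-34A4 beside cyp-35B3 (log2 fold change 0.30, SE 0.21), C03G6.5 beside cyp-35A2 (0.32, SE 0.25), the serine palmitoyltransferase gene sptl-3 beside cyp-35C1 (-0.18, SE 0.16) and nhr-176 beside cyp-35D1 (-0.24, SE 0.31). The number with an unadjusted edgeR p under 0.05 was 0. The receptor gene nhr-176 begins 23 bases after the end of cyp-35D1.

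Set per kilobase of genomic span, introns included, the levels without CHX fell into steps. Highest were cyp-35C1 (68.5 CPM per kilobase) and cyp-35A2 (67.8), whose order changed between libraries. Next came cyp-35A5 (17.6) and cyp-35A3 (17.4), which also changed places. Then cyp-35A4 (2.18), cyp-35D1 (2.03) and cyp-35B1 (1.75) overlapped, followed by cyp-35A1 (0.521) and by cyp-35B2 and cyp-35B3 at 0. With CHX the order was cyp-35A2 (18.3) and cyp-35C1 (10.3), then cyp-35B1 (2.22) and cyp-35A5 (2.13), which overlapped, then cyp-35D1 (1.08) and cyp-35A3 (0.782), which overlapped too. The last with any read were cyp-35B2 (0.256), cyp-35A4 (0.112) and cyp-35A1 (0.0939). Below cyp-35C1 this order is one of means, and the ranges ran into each other. The level of cyp-35D1 in CHX replicate 1 (2.14) was above that of cyp-35A5 in CHX replicate 2 (1.70). In CHX replicate 3, cyp-35B1 (0.705) was below cyp-35A3 (0.833). The ranges of cyp-35A2 and cyp-35C1 with CHX overlapped across libraries, although cyp-35A2 was higher in each of the 3. Coding lengths were not used here, and a gene with longer introns is understated on this scale.

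Libraries of 1 group differed in the same direction for several members at once. All 8 members with a read in the no CHX group were lowest in no CHX replicate 1, as were 17 of the 30 tested P450 genes outside cyp-35 and 32.9% of all tested genes. The mean of no CHX replicates 2 and 3 was 1.66 times that of replicate 1 for cyp-35A2, 2.60 times for cyp-35A3, 1.29 times for cyp-35A5 and 1.91 times for cyp-35C1. In CHX animals all 4 tested members were lowest in replicate 2, as were 30.9% of all tested genes. The weaker members did not share this: cyp-35B1, cyp-35B2 and cyp-35D1 were lowest in CHX replicate 3. For cyp-35A1 and cyp-35A4 the lowest CHX libraries were tied at 0 reads. For the tested members, the mean of CHX replicates 1 and 3 was 1.37 times (cyp-35A5) to 3.06 times (cyp-35A3) that of replicate 2. The members share their libraries, so these counts are no independent observations. For scale, the highest over the lowest no CHX library was 2.69 for cyp-35A3, 2.05 for cyp-35C1, 1.71 for cyp-35A2 and 1.39 for cyp-35A5, against a median of 1.28 and a 95th percentile of 2.12 over 9065 genes with at least 10 CPM on average.

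**Figure D2:**
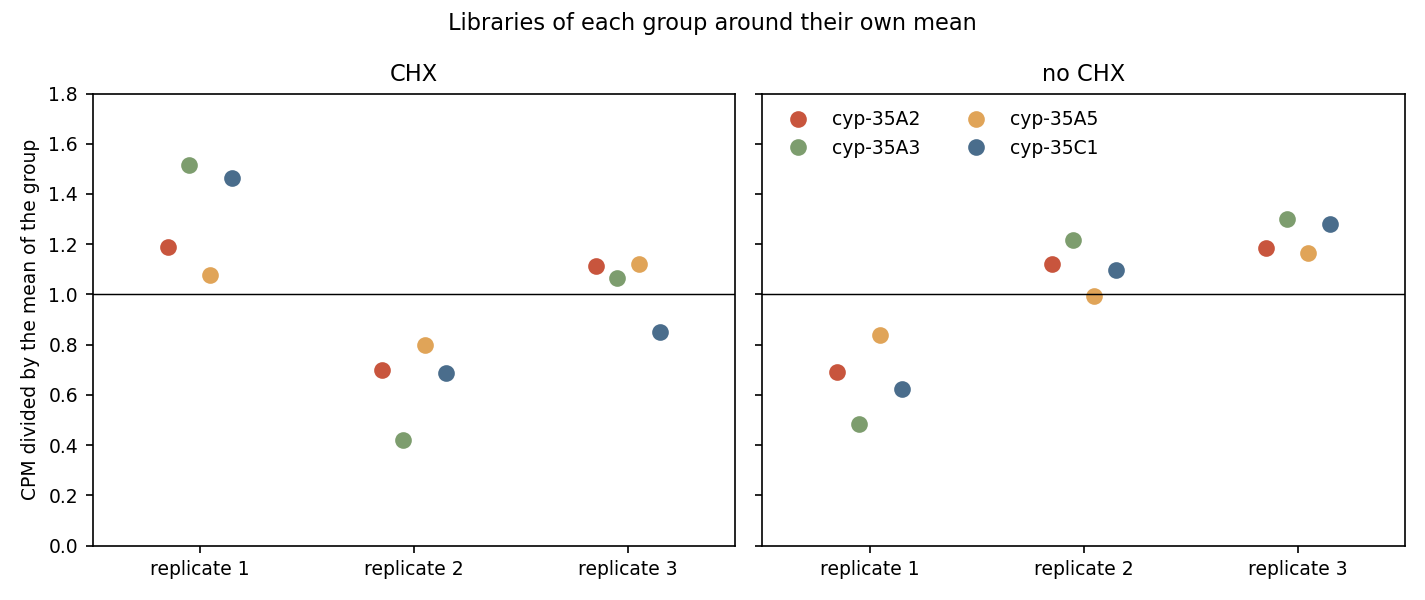
Level of the 4 members with the most reads in each library divided by the mean of its group, CHX on the left and no CHX on the right; the horizontal line is the group mean. All 4 genes lie below the line in CHX replicate 2 and in no CHX replicate 1, with cyp-35A3 farthest below and cyp-35A5 nearest.

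Marker genes of the intestine, where these enzymes act, did not follow that pattern among the no CHX libraries. The 13 intestine markers summed to 3896, 4341 and 4967 CPM in CHX replicates 1 to 3, against 5515, 5356 and 4410 CPM in no CHX replicates 1 to 3, so the library with the least cyp-35 footprints without CHX had the most of these. Between groups 6 of the 13 fell and 1 rose, with a median log2 fold change of -0.38, beside 0.03 over all genes tested. Markers of other tissues moved too. For body wall muscle 6 of 10 fell (median -0.40), and for hypodermis 2 of 9 tested fell and 1 rose (median -0.51). For pharynx 5 of 8 rose (median 0.62), and for neurons 2 of 9 tested rose (median 0.27). The brush border actin gene act-5 had 1132 ± 87.6 CPM in CHX and 1617 ± 22.8 CPM in no CHX (SD, n = 3 each), which is -0.51 on the log2 scale (edgeR adjusted p = 0.00017), and the gut esterase gene ges-1 fell by 0.45. The GATA factor gene elt-2, which directs intestinal fate, had a log2 fold change of 0.18 (SE 0.25), and the riser was the protease gene cpr-1 (1.69). In whole animals, 2 readings cannot be told apart. The intestine may hold a smaller share of all footprints, or cyp-35 may hold fewer within it, from less mRNA or from less translation.

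Oocyte and sperm markers also moved with the drug. The 10 oocyte markers summed to 5556 to 6266 CPM with CHX, against 631 to 835 CPM without, and all 10 rose. The 9 sperm markers summed to 167 to 195 CPM with CHX, against 305 to 332 CPM without, and 5 of the 8 tested fell. The part of tissue make-up and of stage in the cyp-35 difference was not tested.

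The subfamily held a smaller share of all P450 footprints with CHX. Its reads made up 6.07%, 3.35% and 5.05% of all P450 reads in CHX replicates 1 to 3, against 25.3%, 31.6% and 35.8% in no CHX replicates 1 to 3. The exact (Clopper-Pearson) 95% intervals reached from 2.65% to 7.04% over the CHX libraries and from 23.0% to 37.9% over the no CHX libraries. They cover counting error alone, not the spread between libraries. Every CHX library was far below every no CHX library, which is a description, since the subfamily was picked on this contrast. The 66 P450 genes outside the subfamily moved the other way as a sum, with 1326 ± 103.7 CPM in CHX and 736 ± 80.6 CPM in no CHX (SD, n = 3 each). A large part of that was 1 gene, cyp-14A5, with 430 ± 54.03 CPM in CHX and 34.7 ± 16.2 CPM in no CHX (SD, n = 3 each). With cyp-14A5 left out, a choice made after its values were seen, the subfamily took 8.65%, 5.04% and 7.12% of P450 reads with CHX, against 26.2%, 33.0% and 36.5% without.

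**Figure D3:**
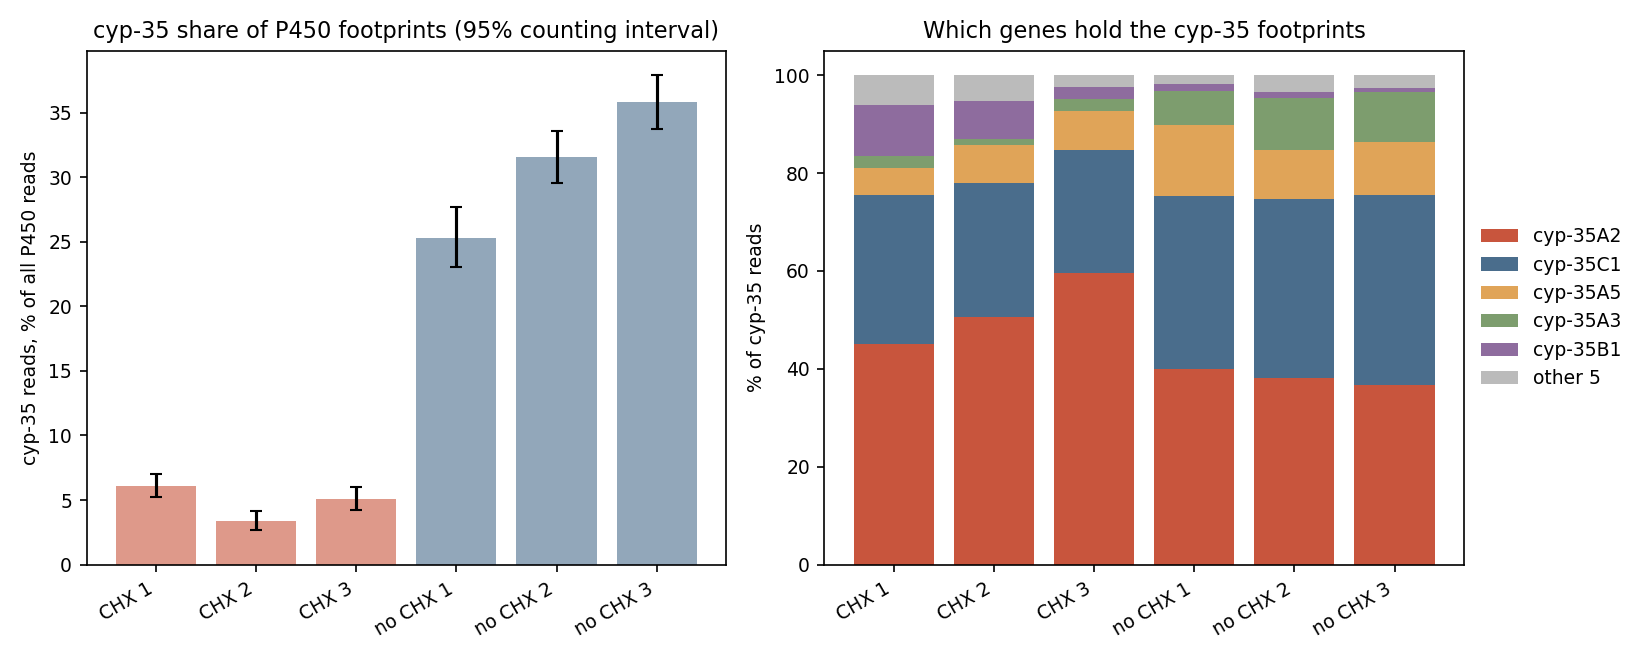
On the left, reads of the 10 cyp-35 genes as a percentage of all P450 reads in each library, with exact 95% counting intervals: 3.35% to 6.07% in CHX libraries and 25.3% to 35.8% in no CHX libraries. On the right, the percentage of cyp-35 reads held by each gene, where cyp-35A3 shrinks and cyp-35A2 grows in CHX libraries.

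The make-up of the subfamily's own footprints differed as well. The share held by cyp-35A2 was 45.1%, 50.6% and 59.7% in CHX replicates 1 to 3, against 40.1%, 38.2% and 36.7% in no CHX replicates 1 to 3. The share of cyp-35A3 was 2.44%, 1.30% and 2.42% with CHX, against 7.10%, 10.6% and 10.2% without, and that of cyp-35C1 was 30.5%, 27.3% and 25%, against 35.2%, 36.5% and 38.8%. The share of cyp-35A5 was 5.49%, 7.79% and 8.06% with CHX, against 14.5%, 10.1% and 10.8% without. In each of these 4 genes the percentages of the groups did not overlap, but exact 95% counting intervals did between some libraries. For cyp-35A2 the interval was 37.4% to 53.1% in CHX replicate 1, against 34.9% to 45.4% in no CHX replicate 1. For cyp-35A3 it was 0.0329% to 7.02% in CHX replicate 2, against 4.65% to 10.3% in no CHX replicate 1. Such shares were not taken within other gene families. The share of cyp-35A2 was higher with CHX although its own level was lower, since its level was the least lowered of the 4. The share of cyp-35B1, 10.4%, 7.79% and 2.42% with CHX, against 1.42%, 1.21% and 0.942% without, also separated the groups, on 3 to 17 reads a library. So did that of cyp-35D1, with 4.88%, 2.60% and 1.61% with CHX, against 0.852%, 1.51% and 1.21% without, on 2 to 10 reads a library. For cyp-35D1 the exact 95% counting interval of every CHX library overlapped those of the no CHX libraries. In CHX replicate 3 it was 0.196% to 5.70%, against 0.726% to 2.76% in no CHX replicate 2. For cyp-35B1 the intervals of CHX replicates 2 and 3 overlapped that of no CHX replicate 1. Reads of cyp-35D1 summed to 12 with CHX and 22 without, so its share was higher only against the lower subfamily total.

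Of the 30 P450 genes outside cyp-35 that could be tested, 8 rose and 3 fell with CHX, and the median log2 fold change was 0.24. The 4 cyp-35 members stood below all of these 30, with the next lowest, cyp-25A1, at -1.47 (SE 0.37, edgeR adjusted p = 0.0042). Next was cyp-29A2, with 21.6 ± 2.48 CPM in CHX and 42.5 ± 11.7 CPM in no CHX (SD, n = 3 each), at -0.97 on the log2 scale. At the other end, cyp-33B1 had 66.9, 46.2 and 57.5 CPM in CHX replicates 1 to 3, against 1.26, 5.66 and 2.22 CPM in no CHX replicates 1 to 3, and rose by 4.17 on the log2 scale, while cyp-14A5 rose by 3.63. Picked after their values were seen, cyp-31A2 (2.09) and cyp-31A3 (1.72), near-identical genes known to make lipids for the eggshell, rose along with the oocyte markers. The subfamily was picked knowing that it was lower, so its place in this order is a description.

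**Figure D4:**
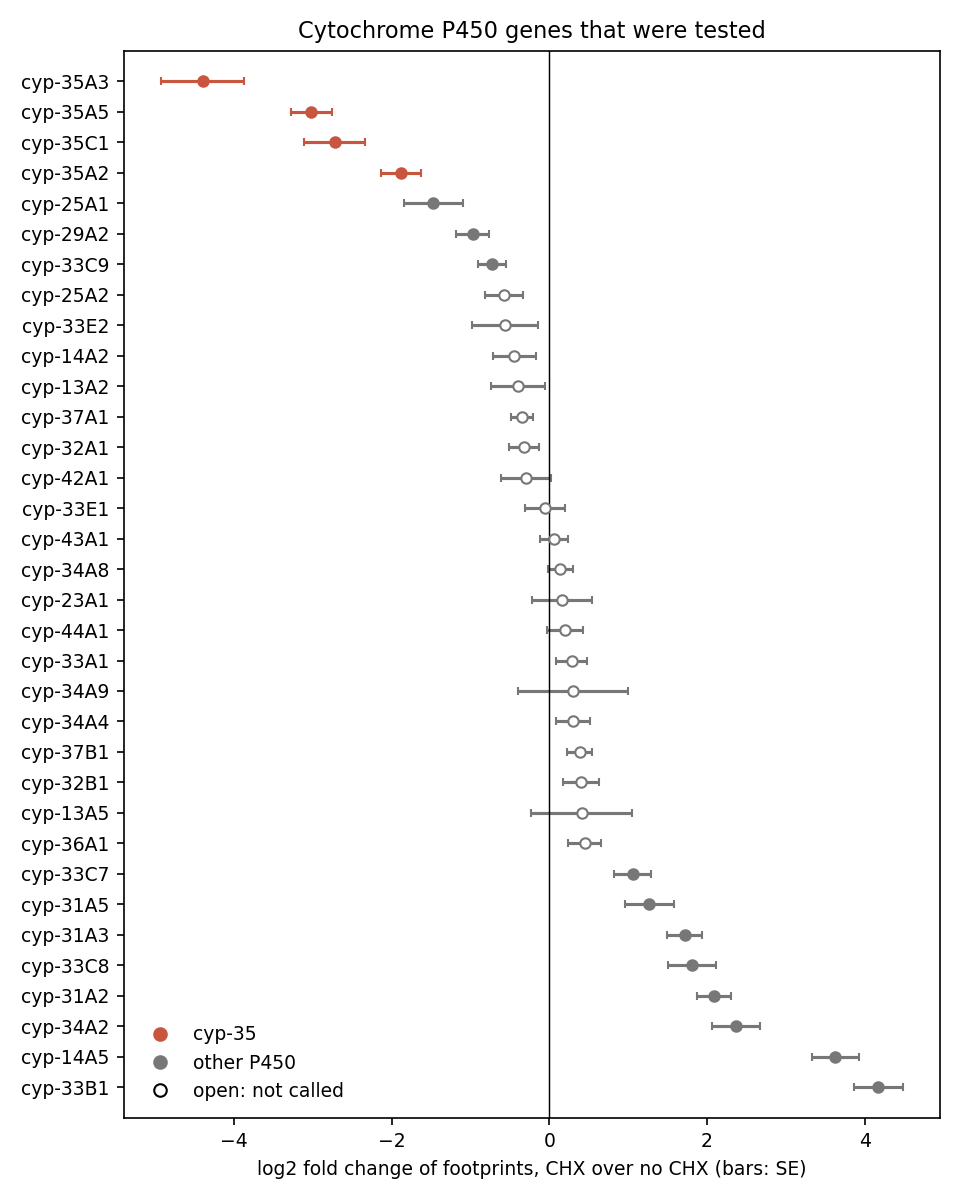
Log2 fold change of footprints, CHX over no CHX, of the 34 cytochrome P450 genes that were tested, ordered from the lowest at the top; bars are standard errors and filled points were called. The 4 cyp-35 genes, from -4.40 to -1.88, stand at the top, below every other P450 gene in value.

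Of 8 tested genes for electron supply and haem transport, the partners of P450 enzymes, 1 fell, with a median log2 fold change of -0.24. The reductase gene emb-8 had 280, 307 and 299 CPM in CHX replicates 1 to 3, against 302, 335 and 427 CPM in no CHX replicates 1 to 3. The ranges overlapped and it was not called (log2 fold change -0.26, SE 0.12). The cytochrome b5 gene cytb-5.1, whose product can hand electrons to P450 enzymes, fell by 0.39 (64.7 ± 5.84 CPM in CHX and 84.9 ± 11.9 CPM in no CHX, SD, n = 3 each; edgeR adjusted p = 0.033).

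Genes that regulate xenobiotic and fat metabolism showed small differences. Of 19 tested, 2 rose and 1 fell, with a median log2 fold change of 0.12. The risers were hlh-30, the worm TFEB of lysosome and fat genes (0.50, edgeR adjusted p = 0.041), and nhr-49, a nuclear receptor of fat use (0.45, edgeR adjusted p = 0.013). The faller was elt-7, a GATA factor of the intestine, with 15.9 ± 2.29 CPM in CHX and 25.7 ± 2.30 CPM in no CHX (SD, n = 3 each; -0.68, edgeR adjusted p = 0.015). Not called were the xenobiotic receptor gene nhr-8 (-0.20, SE 0.16), nhr-176 (-0.24, SE 0.31), the Mediator gene mdt-15 (0.28, SE 0.12) and the detoxification factor gene skn-1 (-0.02, SE 0.12). The aryl hydrocarbon receptor gene ahr-1 had 0, 1 and 1 reads in CHX replicates 1 to 3 and none without, too few to test.

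Later steps of detoxification were mixed. Of 23 glutathione S-transferase genes tested, 12 fell (median -0.50), led by gst-10 with 47.98 ± 1.17 CPM in CHX and 196 ± 2.58 CPM in no CHX (SD, n = 3 each; -2.03). The libraries of gst-10 lay close together within each group. Of 50 UDP-glucuronosyltransferase genes 22 fell and 11 rose (median -0.43), with ugt-22 at -1.99, ugt-21 at -1.99, ugt-24 at 4.31 and ugt-18 at 4.80. The last 2 had few reads in no CHX replicates 1 to 3: 3, 2 and 2 for ugt-24 and 1, 1 and 0 for ugt-18. Of 24 short-chain dehydrogenase genes 8 fell and 2 rose (median -0.06), with dhs-7 at -1.39, dhs-25 at -1.31, dhs-19 at 0.83 and dhs-1 at 0.89. Of 21 P-glycoprotein and MRP transporter genes 4 fell and 10 rose (median 0.37), with pgp-2 at -1.06, pgp-13 at 1.34 and pgp-5 at 2.37. The faller pgp-1 (-1.73, edgeR adjusted p = 0.031) varied widely without CHX, with 16.99 ± 3.58 CPM in CHX and 55.6 ± 30.99 CPM in no CHX (SD, n = 3 each).

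Genes of fat synthesis, storage and release, the process to which cyp-35A genes have been tied, also went both ways. Of 27 tested, 11 fell and 9 rose (median -0.12). The stearoyl-CoA desaturase gene fat-7 had 2.76, 2.46 and 2.07 CPM in CHX replicates 1 to 3, against 24.5, 30.02 and 23.4 CPM in no CHX replicates 1 to 3. Its fold change of -3.38 on the log2 scale, from 5, 4 and 4 reads with CHX, was of the size seen for cyp-35A5. That of the acyl-CoA dehydrogenase gene acdh-2 (-5.40, SE 0.47) was below that of every tested member. It rested on 0, 2 and 1 reads in CHX replicates 1 to 3, against 48, 37 and 52 without, so its size is poorly set. The lysosomal lipase genes lipl-1 (2.61) and lipl-3 (1.92), known to rise in fasting, were higher with CHX.

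The genes most like the subfamily were sought among 10554 tested genes by the distance between profiles over the 6 libraries, each profile being log2 CPM less its own mean. Nearest to the sum of the 10 members were ZK418.2 (distance 0.50), F47G6.3 (0.59), pgph-2 (0.66), the glycerol-3-phosphate dehydrogenase gene gpdh-1 (0.69) and the sperm presenilin gene spe-4 (0.70). The level of ZK418.2 was 10.5, 6.78 and 7.77 CPM in CHX replicates 1 to 3, against 32.7, 39.1 and 48.4 CPM in no CHX replicates 1 to 3. It too was lowest in CHX replicate 2 and in no CHX replicate 1, which a choice by likeness over these libraries favours. For single members, ssp-16 (0.43) and F47G6.3 (0.46) were nearest to cyp-35A2, F54D8.10 (0.49) and the adenine nucleotide translocator gene ant-1.4 (0.53) to cyp-35A5, and gpdh-1 (0.73) and F54D8.10 (0.80) to cyp-35C1. The nearest to cyp-35A3, F36D1.8 (1.14) and F54D8.10 (1.26), were farther off. Each profile has only 6 values and includes the difference between the groups, whose part in the likeness was not measured.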

How the data were processed

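Footprint reads over coding sequence were counted per gene in 6 libraries, and the authors' deposited table holds these raw counts with 1 line for each of 20189 genes, per the file headers. Per the labels' protocols, ribosomes were pelleted through 34% sucrose and fragments of 26 to 34 nucleotides were sequenced with a small RNA kit. The submitters' processing notes name DESeq2 and WBcel235. How reads were aligned, and how strand, molecular identifiers and multiply matching reads were handled, is not given in the sources used here, so reads of similar cyp-35 paralogs may be split or lost, and the A genes were also summed.

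Genes were kept by filterByExpr (minimum count 10), scaled by TMM and compared by the quasi-likelihood test of edgeR 4.0.16 (R 4.3.3) over all 10632 genes, with Benjamini-Hochberg adjustment. Alternatives were other size factors and filters, DESeq2 1.42.0, limma-voom (limma 3.58.1), the replicate number as a block and leaving out each library. The fits were tested on simulated data. The members, gene lists and naming rule (the 2 largest called rises and falls per list at 5 CPM or more, and the nearest profiles, with a prior count of 2) were chosen with earlier results of these data known. All 10 members matched the RefSeq gene table of WBcel235. Sequences were not used here.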

Additional observations from a re-analysis of the deposited data

How the results depend on the processing

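All of cyp-35A2, cyp-35A3, cyp-35A5 and cyp-35C1 stayed lower and called under every alternative that fitted them as single genes. The subfamily was picked on this contrast, and cyp-35A3 and cyp-35A5 passed the filter through the no CHX libraries alone. The calls therefore describe how the values depend on the processing and are not evidence about the members. In the main fit 20.0% of all tested genes were called lower. Called members numbered 4 under each, except 5 without the filter on low counts and 2 with the A genes summed as 1 feature. Without the filter cyp-35A4 joined them (log2 fold change -4.01), on 1 read with CHX and 21 without. That fit held 9 members and called 5123 of 16981 genes in either direction. With the A genes summed, only that sum and cyp-35C1 were left to call. The sum of the A genes had a log2 fold change of -2.31 (SE 0.27), and from -2.55 to -2.12 with 1 library left out. Leaving out 1 library moved cyp-35A2 between -2.12 and -1.69, cyp-35A3 between -4.78 and -4.08, cyp-35A5 between -3.16 and -2.89 and cyp-35C1 between -3.09 and -2.52. Genes called over the whole table numbered 4487, from 3840 to 4329 with 1 library left out, 3343 with DESeq2 and 5123 without the filter. Deviations of same-numbered libraries correlated at -0.113, -0.0803 and -0.0837, so no pairing by number was seen. With 3 libraries a group these correlations cannot exclude a pairing. With the replicate block 3999 genes and the same 4 members were called. No member was called higher under any alternative, but cyp-35B1, cyp-35B2 and cyp-35D1 were fitted only without the filter on low counts. Depth limits the B and D genes and cyp-35A1, with 0 to 17 reads a library.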
